A study of Homo sapiens with 4 samples.

Results

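The genes described are the mitotic kinases PLK1, AURKA and AURKB, cyclin B-CDK1 and the direct activators and partners of these kinases. They were taken by name as PLK1, AURKA, AURKB, INCENP, BIRC5, CDCA8, CCNB1, CCNB2, CDK1 and CDC25C. All 10 were found among the 28729 genes of the table, and all 10 passed the filter on low values (a mean FPKM of at least 1), as did 12645 genes in all. FPKM counts the sequenced fragments of a gene per kilobase of its exons, relative to library size, and is therefore a level per length. Levels set side by side between genes depend on the exon length used for each gene.

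The libraries were made from TU-177, an established line of laryngeal squamous cell carcinoma (LSCC). Both groups received a lentivirus and were selected with puromycin from 48 h after transduction, in DMEM with 10% FBS. The 2 NC libraries carried a negative control shRNA and the 2 SKA3-KD libraries an shRNA against SKA3, a subunit of the SKA complex that holds kinetochores on spindle microtubules. Each group is therefore a drug-selected pool from 1 line, the number of shRNA sequences behind SKA3-KD is not given in the labels, and the labels do not say whether the replicates were separate cultures, so the p-values measure only the spread between these samples.

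Library sizes read from the steps of the FPKM values lay between 9015056 and 11966130 reads. SKA3 (ENSG00000165480, chromosome 13) was listed at FPKM 9.40 and 9.64 in NC against 3.77 and 4.12 in SKA3-KD, a log2 difference of -1.09 (SE 0.07, adjusted p = 0.00806, limma with Benjamini-Hochberg adjustment). The labelled tissue was only in part visible in the markers. Of 8 squamous epithelial markers 3 had a mean FPKM of at least 1 (SFN, KRT17 and EPCAM), while KRT5, KRT14, KRT6A, TP63 and CDH1 stayed below 1 in both group means. The summed squamous markers were 193 and 208 in NC and 167 and 189 in SKA3-KD. The summed fibroblast markers were 15.4 and 15.8 against 8.86 and 9.56, with COL1A2 and LUM near 0 and 3 of 6 markers at a mean of at least 1. None of the 5 leukocyte or 2 endothelial markers in the table reached a mean of 1. Among these marker genes KRT17 and DCN were lower past the threshold, and the part of such differences in the results below was not tested.

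Entry into mitosis is driven by CDK1 bound to cyclin B. WEE1 and PKMYT1 hold the kinase inactive by phosphorylation, and the CDC25 phosphatases remove these marks. PLK1 is switched on by AURKA with its cofactor BORA and then acts on CDC25C, WEE1, centrosomes and kinetochores. AURKA works at centrosomes and on spindle microtubules with TPX2, while AURKB works at centromeres and the midzone in the chromosomal passenger complex with INCENP, survivin (BIRC5) and borealin (CDCA8). In many cell types these genes are transcribed mainly in G2 and mitosis, through promoters with CCAAT boxes bound by NF-Y and with CHR elements bound by the DREAM and MYB-MuvB complexes.

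Promoter sequence is shown because members that are usually transcribed in G2 and mitosis carry these elements in a recognisable arrangement close to the start. The RefSeq promoter table (GRCh38.p14), with windows from 250 bases before to 50 bases after each start, held 8 of the 10 members in 13 windows, and AURKA and BIRC5 had no entry. The 100 bases before the start are printed 5′ to 3′ on the strand of the gene, which is the plus strand in each case. Capitals mark CCAAT or the CHR letters TTTGAA on either strand, so that ATTGG is a CCAAT read on the other strand.
PLK1, chr16:23678789-23678888: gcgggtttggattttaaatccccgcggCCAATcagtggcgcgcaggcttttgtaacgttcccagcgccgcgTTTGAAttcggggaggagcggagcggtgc
CCNB1, chr5:69167050-69167149: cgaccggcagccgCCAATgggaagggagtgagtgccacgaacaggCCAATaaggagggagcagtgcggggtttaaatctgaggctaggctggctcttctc
CCNB2, chr15:59105046-59105145: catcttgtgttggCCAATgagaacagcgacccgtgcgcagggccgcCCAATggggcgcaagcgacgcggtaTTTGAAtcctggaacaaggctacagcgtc
CDCA8, chr1:37692416-37692515: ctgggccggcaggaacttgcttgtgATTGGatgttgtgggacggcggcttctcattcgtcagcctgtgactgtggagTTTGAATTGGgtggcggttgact
INCENP, chr11:62123911-62124010: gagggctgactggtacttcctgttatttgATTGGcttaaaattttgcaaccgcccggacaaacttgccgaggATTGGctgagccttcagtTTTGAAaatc

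The printed stretches show the same order of letters in PLK1, CCNB2, CDCA8 and INCENP, with a CCAAT box farther from the start and TTTGAA nearer to it. This order did not hold in all windows that are not printed. At the CDK1 start 60778331, TTTGAA lay 161 bases before the start and CCAAT 150. At the CDC25C start 138331877, TTTGAA lay 43 bases after the start, and the CDC25C windows at 138338355 and 138338341 held neither. The first base of TTTGAA lay 29 bases before the start in PLK1 and in CCNB2, 23 bases before it in CDCA8 and 10 bases before it in INCENP. In CDCA8 the element shares 1 base with a reversed CCAAT box. The letters CCAAT were found in the windows of 8 of 8 members, against 39.7% of the 27305 genes in the promoter table, and 6 members had a window with at least 2 CCAAT boxes, against 12.9% of genes. TTTGAA was found in 6 of 8 members, against 18.2% of genes, and these letters are not in the windows of CCNB1 and AURKB. CCAAT and TTTGAA stood in the same window in 6 members, against 7.26% of genes, and the variant TTCGAA in 0 of 8, against 1.82%. No other form of the CHR element was searched for, so the windows of CCNB1 and AURKB are not shown to lack one. CDK1, INCENP and CDC25C, which did not pass the test of expression below, held the same letters as PLK1 and CCNB2, CDC25C only in some of its windows. A match of letters is a description of the window and was not measured as binding.

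**Figure D1:**
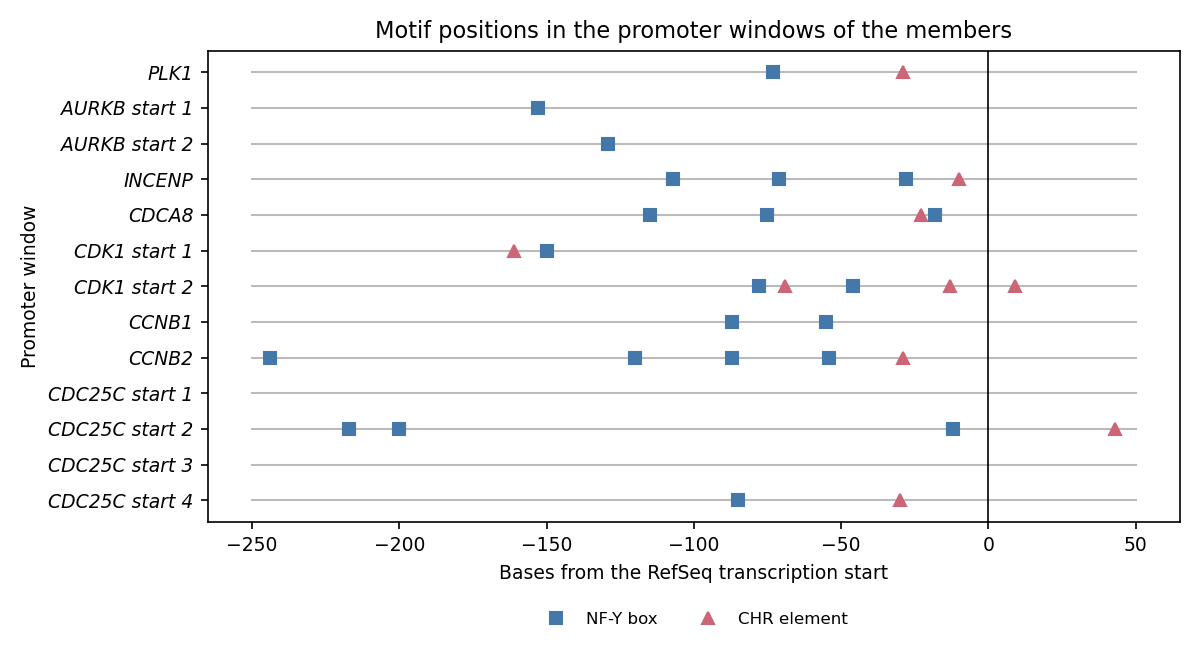
Position of CCAAT (NF-Y box, squares) and TTTGAA (CHR element, triangles) on either strand in the 13 RefSeq promoter windows of 8 members, in bases from the transcription start, which is the vertical line. CCAAT boxes appear in 11 windows and CHR letters in 8, and the CHR letters of PLK1 and CCNB2 stand at the same 29 bases before the start.

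The first question was which of the 10 transcripts differed between SKA3-KD and NC. PLK1, AURKA, BIRC5, CDCA8, CCNB1 and CCNB2 rose, none of the 10 fell past the threshold, and the level of CDK1 itself overlapped between the groups. Of the 10 genes, 6 were higher at an adjusted p under 0.05 in limma over all 12645 genes, a call made for 6.16% of all genes tested, and 0 were lower, a call made for 6.11%. The 10 genes were chosen with earlier results of these data known, so their counts beside all genes are a description and not a test. At an unadjusted p under 0.05 the limma count was 8 higher and 0 lower, beside 2046 higher and 1912 lower of all 12645 genes. At an adjusted p under 0.05, limma voom on recovered reads called 7 members higher and 0 lower, beside 1602 higher and 1665 lower of all genes. Both SKA3-KD libraries stood above both NC libraries in 9 of the 10, which 32.3% of all genes tested did. The median log2 difference of the 10 was 0.47, beside 0.01 over all genes tested. Log2 differences are on the log2(FPKM + 1) scale, which understates the change of low genes. In bulk libraries a changed number of cells of a kind, such as cells in G2 or mitosis, and a changed amount of RNA per cell cannot be told apart. MKI67, a marker of cycling cells, was listed at FPKM 37.9 and 37.1 in NC and 39.3 and 38.2 in SKA3-KD (log2 difference 0.05, adjusted p = 0.602). How its level varies over the cycle was not measured here, so the share of cells in any phase cannot be read from it.

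**Figure D2:**
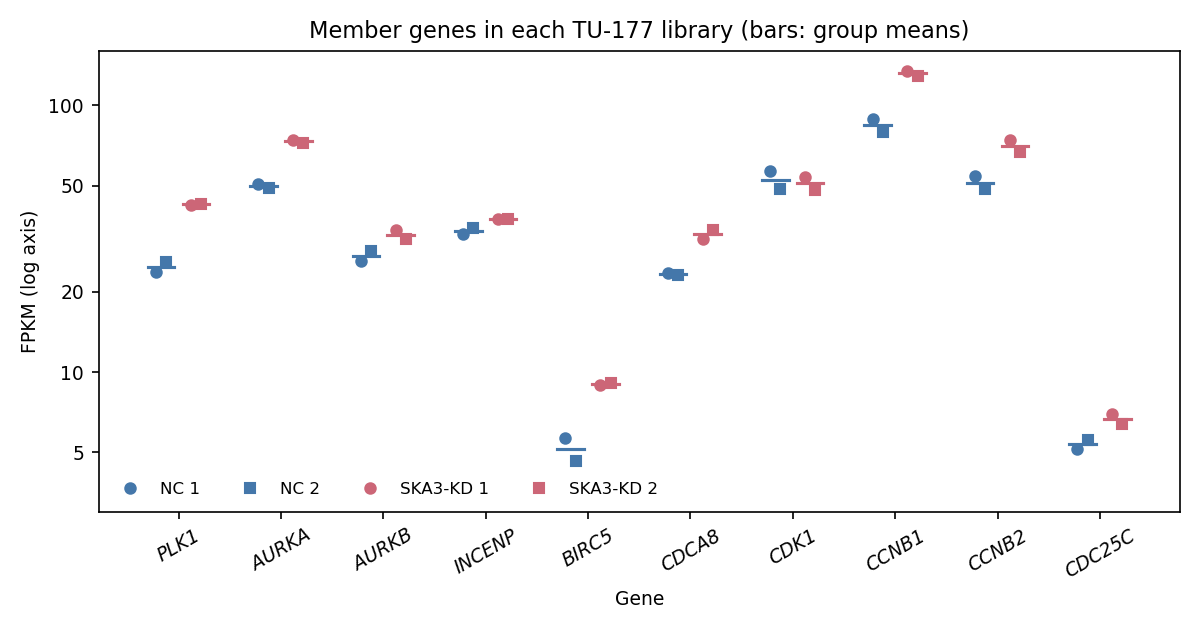
FPKM of the 10 genes on a log axis in the NC libraries (blue) and the SKA3-KD libraries (red), with circles for replicate 1, squares for replicate 2 and bars for group means. Red symbols lie above the blue ones for every gene except CDK1, for example at 42.4 and 42.8 against 23.8 and 25.8 for PLK1.

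PLK1 (ENSG00000166851, chromosome 16), the kinase that drives centrosome maturation, mitotic entry and kinetochore signalling, was listed at FPKM 23.8 and 25.8 in the NC libraries and at 42.4 and 42.8 in the SKA3-KD libraries. Both SKA3-KD libraries were high and nearly equal, and the gap to NC was far wider than the gap between the NC libraries. The means were 24.8 ± 1.48 (SD, n = 2) and 42.6 ± 0.266 (SD, n = 2), a ratio of 1.72. The log2 difference was 0.76 (95% interval 0.59 to 0.93, adjusted p = 0.0103), which stood at rank 144 among the genes tested, counted from the highest. These values rest on 1353, 1109, 2053 and 2400 reads. Exons of PLK1 share 553 bases with an antisense gene (AC008870.3) whose FPKM was at most 0.353, and whether reads were counted by strand is not given in the sources used here.

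AURKA (ENSG00000087586, chromosome 20), the Aurora kinase of centrosomes and spindle poles and an activator of PLK1, was listed at FPKM 50.8 and 49.0 in NC and 74.1 and 72.2 in SKA3-KD. Replicates differed by less than 2 FPKM in either group and the groups were far apart. The ratio of the means was 1.47 and the log2 difference 0.54 (95% interval 0.40 to 0.68, adjusted p = 0.0127). Reads from the processed copy AURKAP1 could be confused with AURKA, and its FPKM was at most 0.138.

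Subunits of the chromosomal passenger complex did not all pass the test. AURKB (ENSG00000178999, chromosome 17), its kinase, was listed at FPKM 26.1 and 28.3 in NC and 33.9 and 31.6 in SKA3-KD. The groups did not overlap, and the log2 difference was 0.26 (95% interval 0.07 to 0.45, adjusted p = 0.0831). INCENP (ENSG00000149503, chromosome 11), the scaffold that binds and activates AURKB, was listed at 32.9 and 34.6 against 37.4 and 37.6. Its log2 difference was 0.15 (95% interval -0.00 to 0.30, adjusted p = 0.166), the smallest of the 4 subunits.

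BIRC5 (ENSG00000089685, chromosome 17), which encodes survivin and docks the complex on centromeric chromatin, was listed at FPKM 5.65 and 4.62 in NC and 8.96 and 9.09 in SKA3-KD. The SKA3-KD libraries were nearly equal, while the NC libraries were farther apart, with 258 and 159 reads. The ratio of the means was 1.76 and the log2 difference 0.71 (95% interval 0.46 to 0.97, adjusted p = 0.0212). CDCA8 (ENSG00000134690, chromosome 1), which encodes borealin and targets the complex with survivin, was listed at 23.4 and 23.0 in NC and 31.6 and 34.1 in SKA3-KD. Here the NC libraries were nearly equal, and the log2 difference was 0.48 (95% interval 0.32 to 0.65, adjusted p = 0.0196).

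Both B-type cyclins rose and their kinase did not pass the test. CCNB1 (ENSG00000134057, chromosome 5), the main mitotic cyclin, was listed at FPKM 88.9 and 79.3 in NC and 134 and 129 in SKA3-KD, the highest levels of the 10 genes in either group. The log2 difference was 0.64 (95% interval 0.45 to 0.83, adjusted p = 0.0150). CCNB2 (ENSG00000157456, chromosome 15), the second B-type cyclin, was listed at 54.1 and 48.4 against 73.8 and 66.7, a log2 difference of 0.45 (95% interval 0.23 to 0.67, adjusted p = 0.0364). In both cyclins replicate 1 exceeded replicate 2 in each group, and the groups did not overlap. The processed copy CCNB2P1 was listed at 0.145 in NC 1 and at 0 in the other libraries.

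CDK1 (ENSG00000170312, chromosome 10), the catalytic partner of the B-type cyclins, was listed at FPKM 56.6 and 48.7 in NC and 53.9 and 48.1 in SKA3-KD. It was the only member whose groups overlapped, and the NC libraries differed from each other by more than the group means did. The log2 difference was -0.04 (95% interval -0.30 to 0.21, adjusted p = 0.808). CDC25C (ENSG00000158402, chromosome 5), the phosphatase that activates cyclin B-CDK1 at mitotic entry, was listed at 5.16 and 5.58 against 6.98 and 6.38. Its groups did not overlap, and the log2 difference was 0.27 (95% interval 0.06 to 0.48, adjusted p = 0.0976) on 153 to 229 reads a library. CDC25C shares 293 exonic bases with FAM53C on the opposite strand, which was listed at 6.02 and 5.19 in NC and 5.35 and 6.17 in SKA3-KD.

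**Figure D3:**
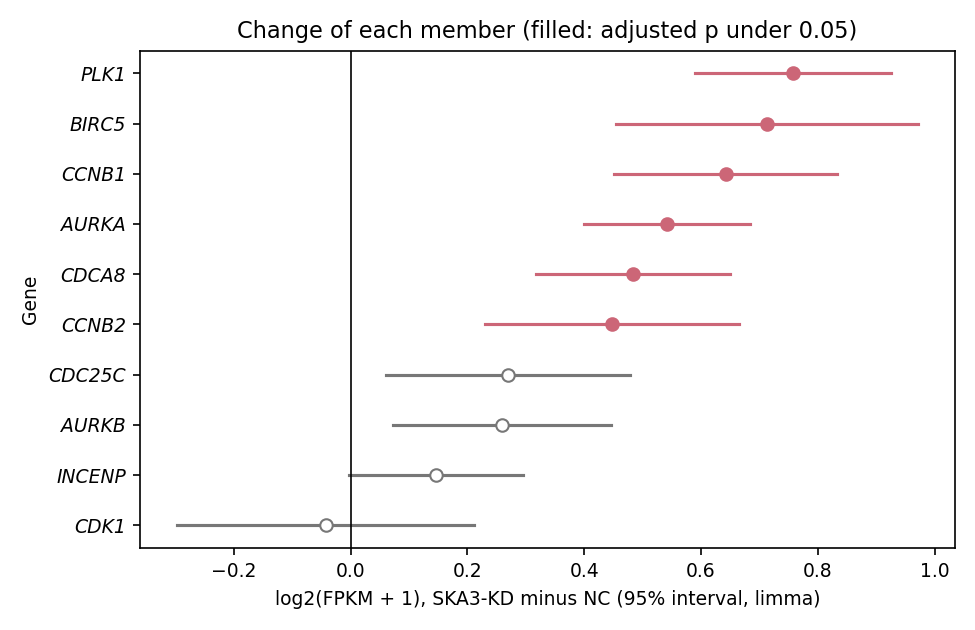
Difference in log2(FPKM + 1), SKA3-KD minus NC, for each of the 10 genes with its 95% interval from limma, ordered by size. Filled points passed an adjusted p of 0.05 (6 genes, from 0.45 for CCNB2 to 0.76 for PLK1), and open points did not (AURKB, CDC25C, INCENP and CDK1).

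The calls of single genes depended on having all 4 libraries. With 1 library left out, the adjusted p ran from 0.0489 to 0.0689 for PLK1, from 0.053 to 0.0729 for AURKA, from 0.0522 to 0.0729 for CCNB1, from 0.0566 to 0.0898 for BIRC5, from 0.0675 to 0.0976 for CDCA8 and from 0.0885 to 0.146 for CCNB2, so only PLK1 stayed past the threshold, and only without NC 2. The directions of these 6 genes held in all 4 of these fits, with log2 differences of 0.70 to 0.82 for PLK1 and 0.59 to 0.83 for BIRC5. CDK1 turned to 0.06 without NC 1 and to 0.04 without SKA3-KD 2, neither of them a call. With no filter on low values the calls of BIRC5, CDCA8, CCNB1 and CCNB2 were lost (adjusted p = 0.0770, 0.0614, 0.0638 and 0.107), and that of CCNB2 was also lost in eBayes without a trend (adjusted p = 0.0738). AURKB passed with a mean FPKM of at least 5 (adjusted p = 0.0447) and in limma voom on recovered reads (adjusted p = 0.0367).

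The order of the levels differed in places between the groups. In NC the mean FPKM ran from CCNB1 (84.1) through CDK1 (52.6), CCNB2 (51.2) and AURKA (49.9) to INCENP (33.8), AURKB (27.2), PLK1 (24.8), CDCA8 (23.2), CDC25C (5.37) and BIRC5 (5.14). The ranges of CDK1, CCNB2 and AURKA overlapped from neighbour to neighbour, as did those of CDC25C and BIRC5, so their order in NC is not resolved by 2 libraries. In SKA3-KD the order ran from CCNB1 (132) through AURKA (73.1), CCNB2 (70.2), CDK1 (51.0), PLK1 (42.6), INCENP (37.5), CDCA8 (32.9) and AURKB (32.7) to BIRC5 (9.03) and CDC25C (6.68). There AURKA overlapped CCNB2, and CDCA8 overlapped AURKB. The place of each gene, and its ratio to another gene, rest on the length behind its FPKM. For CCNB2 this length was 1825 bases by the read steps and is 2801 in GENCODE 29. PLK1 stood below INCENP and AURKB in both NC libraries and above both genes in both SKA3-KD libraries. Summed over the 10 genes, FPKM was 367 and 347 in NC and 498 and 477 in SKA3-KD.

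Ratios of FPKM within a library show whether partners moved by like amounts. Of 12 pairs, 11 had ratios that did not overlap between the groups, each with an exact two-sided permutation p of 0.333. This is the smallest p that 2 libraries against 2 allow, so that none of these ratios could reach 0.05. Lack of overlap is common here: of all single genes tested, 32.3% had both SKA3-KD libraries above both NC libraries and 29.2% below. No such share was computed for pairs, and several pairs share CDK1 or INCENP, so they are not separate results. The ratio of CCNB1 to CDK1 was 1.57 and 1.63 in NC and 2.49 and 2.68 in SKA3-KD, and that of CCNB2 to CDK1 was 0.956 and 0.994 against 1.37 and 1.39. The ratio of PLK1 to CDK1 was 0.420 and 0.531 against 0.786 and 0.889.

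Within the chromosomal passenger complex the subunits moved by unequal amounts. The ratio of BIRC5 to INCENP was 0.172 and 0.133 in NC and 0.240 and 0.242 in SKA3-KD. CDCA8 to INCENP was 0.711 and 0.664 against 0.847 and 0.908. AURKB to INCENP was 0.792 and 0.818 against 0.908 and 0.839, the smallest shift of these 3 pairs. AURKA to AURKB was 1.95 and 1.73 in NC and 2.18 and 2.29 in SKA3-KD.

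Pairs of a kinase and its regulator did not all move alike. AURKA and its spindle activator TPX2 kept a ratio that overlapped between the groups, 0.538 and 0.554 in NC and 0.556 and 0.545 in SKA3-KD (exact two-sided permutation p = 0.667). The ratio of PLK1 to BORA was 3.41 and 4.50 against 5.65 and 5.78. CDC25C to WEE1, the phosphatase against the opposing kinase, was the only pair with a lower ratio in SKA3-KD, at 0.740 and 0.764 against 0.869 and 1.03 in NC.

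**Figure D4:**
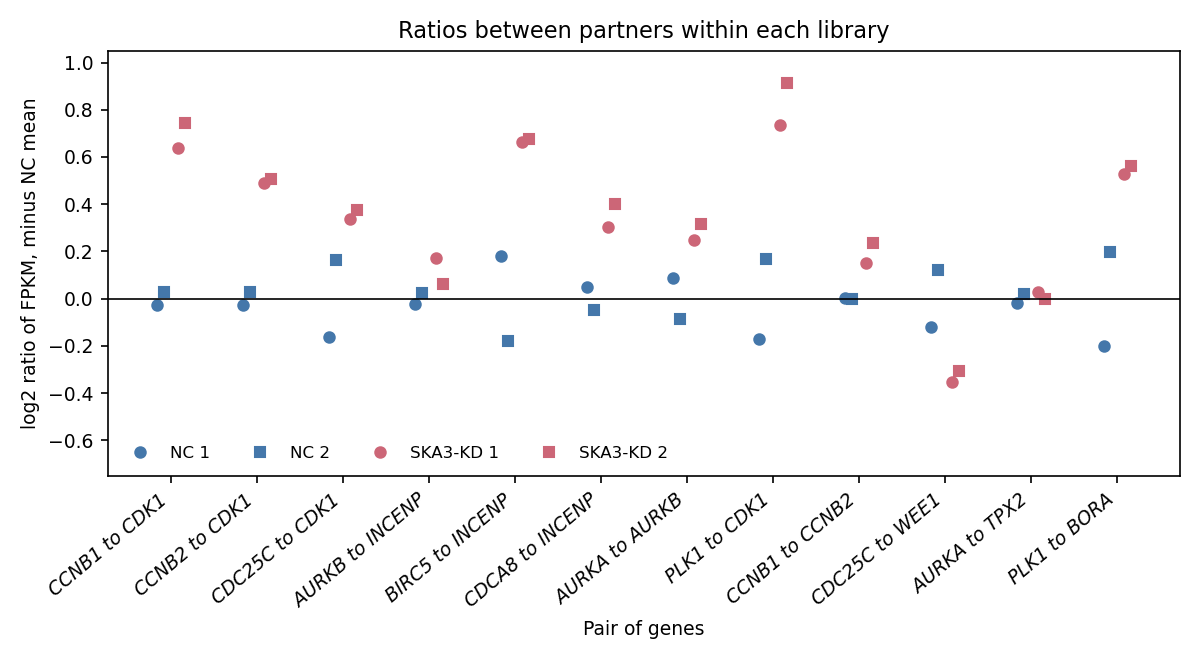
Log2 ratio of FPKM between the 2 genes of each pair, minus the mean of the NC libraries, with NC in blue, SKA3-KD in red, circles for replicate 1 and squares for replicate 2. The SKA3-KD symbols lie above those of NC in 10 pairs, below them for CDC25C to WEE1, and among them for AURKA to TPX2.

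The next question was how the regulators of cyclin B-CDK1 stood. In each of the lists that follow, at most 1 gene was called with 1 library left out, and likewise with no filter on low values. With eBayes without a trend, 1 CDK1 regulator (0 lower), 1 of the PLK1 and Aurora partners, 0 paralogs, 2 genes of removal by the proteasome, 1 transcription factor and 1 G1/S gene were called. The calls of WEE1, PKMYT1, CKS2, CDKN1A, KIF23, KIF20A, PRC1, PLK4, CDC27, FOXM1, NFYC, MCM6 and CCNE1 were lost, at adjusted p from 0.0513 (WEE1) to 0.0785 (CKS2). Those of CCNA2, CCNF, BUB1, SGO2 and CIT were lost as well. Of 19 regulators of cyclin B-CDK1, 6 were higher, 1 was lower and 12 did not pass, with a median log2 difference of 0.05. Over all genes tested, 6.16% were higher and 6.11% lower, with a median of 0.01. No list was tested as a set, and the lists, like the members, were chosen with earlier results of these data known. The inhibitory kinases WEE1 and PKMYT1 and the activating phosphatase CDC25B rose together. WEE1 was listed at FPKM 5.94 and 5.43 in NC and 9.42 and 8.35 in SKA3-KD (log2 difference 0.56, adjusted p = 0.0255). PKMYT1 was listed at 8.72 and 10.2 against 14.1 and 13.9 (0.53, adjusted p = 0.0286). CDC25B was listed at 26.9 and 28.9 against 42.1 and 39.1 (0.52, adjusted p = 0.0196). In all 3 the groups did not overlap.

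CKS2, a small subunit of CDK complexes, was listed at FPKM 239 and 216 in NC and 327 and 291 in SKA3-KD (log2 difference 0.44, adjusted p = 0.0386). CCNA2, which encodes cyclin A2, and CCNF, which encodes the F-box protein cyclin F, were the other 2 that rose. CDKN1A, the CDK inhibitor p21, fell, from 40.2 and 42.3 to 31.4 and 31.3 (log2 difference -0.38, adjusted p = 0.0238). CDC25A had a log2 difference of 0.25 (adjusted p = 0.0674, but 0.0454 with a mean FPKM of at least 5 and 0.0456 in limma voom), and CKS1B, whose groups overlapped, one of 0.12 (adjusted p = 0.409).

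Partners of PLK1 and the Aurora kinases were higher more often than lower. Of 16 genes 7 rose, 0 fell and 9 did not pass, beside 6.16% higher and 6.11% lower over all genes tested. The median log2 difference was 0.30. TPX2 was listed at FPKM 94.5 and 88.5 in NC and 133 and 132 in SKA3-KD (log2 difference 0.53, adjusted p = 0.0138). KIF23, the motor of centralspindlin, rose by 0.51 on the log2 scale (adjusted p = 0.0270). PRC1, which bundles midzone microtubules, and KIF20A, the motor that brings the passenger complex to the midzone, each rose by 0.43 (adjusted p = 0.0258 and 0.0255). BUB1, SGO2 and CIT were the other 3 that passed. BORA, the PLK1 activator, was listed at 6.96 and 5.74 against 7.51 and 7.40 (0.21, adjusted p = 0.231), and CEP192, which recruits AURKA and PLK1 to centrosomes, had a log2 difference of 0.05 (adjusted p = 0.737).

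Paralogs of the kinases gave 1 call, higher, among 3 genes tested, beside 6.16% higher over all genes tested. PLK4, the kinase of centriole duplication, was listed at FPKM 6.53 and 6.58 in NC and 8.81 and 8.34 in SKA3-KD (log2 difference 0.34, adjusted p = 0.0401). PLK2 had a log2 difference of -0.13 (adjusted p = 0.296) and PLK3 one of 0.06 (adjusted p = 0.760). PLK5, AURKC and CCNB3 stayed below a mean FPKM of 1 and were not tested.

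Removal of the mitotic kinases and cyclins runs through the anaphase-promoting complex (APC/C) and other ubiquitin ligases. Of the 10 genes tested from this list 3 rose and 0 fell, beside 6.16% higher and 6.11% lower over all genes tested. The median log2 difference was 0.21. UBE2S, the enzyme that extends ubiquitin chains for the APC/C, was listed at FPKM 87.5 and 93.2 in NC and 133 and 140 in SKA3-KD (log2 difference 0.59, adjusted p = 0.0129). CDC20, the mitotic activator of the APC/C, was listed at 63.7 and 62.5 against 91.4 and 93.0 (0.54, adjusted p = 0.0114). CDC27, an APC/C subunit, rose by 0.41 on the log2 scale (adjusted p = 0.0253). FZR1, the activator that takes over late in mitosis, had a log2 difference of -0.13 (adjusted p = 0.459), and UBE2C one of 0.21 (adjusted p = 0.125).

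Among the transcription factors that act on promoters of the printed kind, 2 of 13 tested rose and 1 fell, with a median log2 difference of 0.03. With 6.16% higher and 6.11% lower over all genes tested, counts this small do not set the list apart. MYBL2, the MYB protein of the MYB-MuvB complex, was listed at FPKM 90.0 and 97.4 in NC and 144 and 145 in SKA3-KD (log2 difference 0.62, adjusted p = 0.0119). FOXM1, which joins that complex in G2, was listed at 22.2 and 24.8 against 30.3 and 32.8 (0.41, adjusted p = 0.0399, and 0.0506 after quantile normalization). NFYC, a subunit of the CCAAT-binding NF-Y, fell from 8.12 and 8.81 to 6.48 and 5.99 (-0.39, adjusted p = 0.0417). LIN9 and LIN52, subunits of the MuvB core, had log2 differences of -0.11 and -0.23 (adjusted p = 0.588 and 0.199).

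Genes of the G1/S transition served as the other side of the cycle. Of 18 genes 2 rose, 1 fell and 15 did not pass, with a median log2 difference of -0.09. These counts also lie near the shares over all genes tested, 6.16% higher and 6.11% lower. Both SKA3-KD libraries stood below both NC libraries in 10 of the 18, which 29.2% of all genes tested did. They stood above both in 5, which 32.3% of all genes did. Over the fits with all 4 libraries, 0 to 4 of these genes were called lower and 1 to 2 higher. RRM2, a subunit of ribonucleotide reductase, was listed at FPKM 36.5 and 36.4 in NC and 54.6 and 52.1 in SKA3-KD (log2 difference 0.54, adjusted p = 0.0129). MCM6, a subunit of the replicative helicase, rose by 0.51 on the log2 scale (adjusted p = 0.0230), whereas MCM2 and MCM3 of the same helicase had log2 differences of -0.10 and -0.23 (adjusted p = 0.333 and 0.0571). MCM3 was past the threshold, as lower, in 5 of the 9 alternatives with all 4 libraries, at adjusted p from 0.00927 (limma voom) to 0.0497 (median-of-ratios scaling). CCNE1, which encodes cyclin E1, fell from 14.8 and 12.8 to 10.2 and 9.44 (-0.45, adjusted p = 0.0407). The difference between this list and the mitotic genes was not tested.

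**Figure D5:**
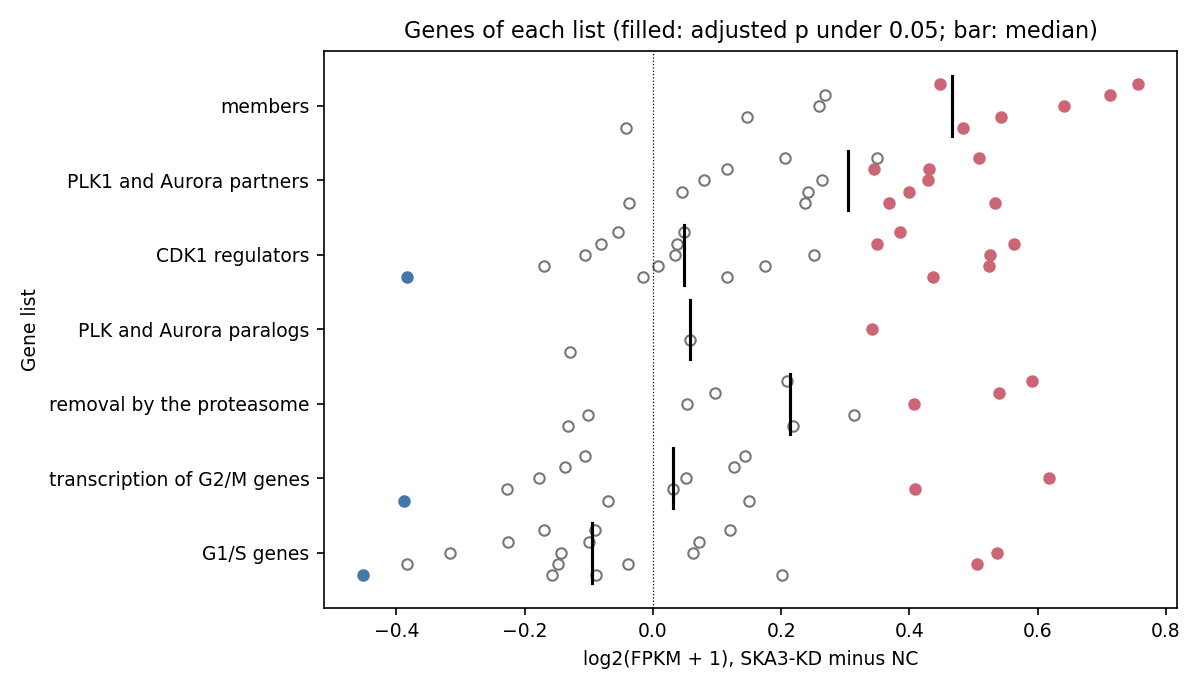
Difference in log2(FPKM + 1), SKA3-KD minus NC, of each tested gene by list, with red points higher and blue points lower at an adjusted p under 0.05, open points not past it, and a black bar at the median. The medians run from -0.09 for the G1/S genes to 0.30 for the PLK1 and Aurora partners and 0.47 for the 10 members.

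The genes most like PLK1 were sought by the Euclidean distance in log2(FPKM + 1), centred on the NC mean, over the 4 libraries, among 11452 genes averaging 20 reads or more. With 2 groups of 2 such a distance mainly finds genes with a difference of like size. The nearest were FAM72D (distance 0.0319), CCND3 (0.0432), FURIN (0.0686), TNFRSF12A (0.0701) and LONRF1 (0.0723), none of them a member of the lists above. CCND3, which encodes cyclin D3 of G1, was listed at FPKM 37.9 and 40.9 in NC and 65.2 and 68.6 in SKA3-KD. FURIN, a proprotein convertase, was listed at 40.6 and 46.3 against 73.4 and 76.9, and TNFRSF12A, the receptor of TWEAK, at 57.7 and 64.3 against 98.7 and 105. FAM72D belongs to a family of near-identical copies, so its 2.79 and 3.15 against 5.71 and 5.60 are uncertain.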

How the data were processed

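Trizol extracts of 4 TU-177 samples went to sequencing on an Illumina HiSeq 4000. The authors deposited FPKM values per gene, already divided by gene length and library size. Per the labels' processing notes of the submitters, the build was hg19 and the tools were Bowtie2 2.2.8, HISAT2, StringTie 1.3.1 and Cuffdiff 2.1.1, with no roles given. Gene names, chromosomes and exon lengths came from GENCODE 29 (GRCh38), which covered 27199 of 28729 identifiers, so lengths may differ from those used for the FPKM values.

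SKA3-KD was compared with NC by limma 3.58.1 in R 4.3.3 (moderated with a mean-variance trend, two-sided tests) of log2(FPKM + 1), over the 12645 genes whose mean FPKM was 1 or more, with Benjamini-Hochberg adjustment over all of them and a threshold of 0.05. Reads were recovered from the FPKM steps within 0.002 of a whole read for 99.9% of genes above 0. Summed over genes, the recovered reads exceeded the library size read from the steps in each library. In NC 1 the sum was 12613027 against a library size of 11966130, and the reason was not tested. Of the genes tested, 61.3% gave whole reads with the GENCODE length and 38.6% with another length, the latter including AURKB, CCNB2, CDK1 and CDC25C. The NC pair and the SKA3-KD pair differed by more than sampling noise (chi-square per degree of freedom 3.86 and 3.82) and were kept as separate samples. No depth interval is given for FPKM.

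Alternatives were each library left out, limma voom on recovered reads, a block for the replicate number, moderation that was robust or had no trend, quantile or median-of-ratios scaling, a minimum mean FPKM of 5 or none, and 0.1 as the pseudocount. The members and the gene lists were chosen with earlier results of these data known. Named are the 10 members, SKA3, MKI67, in each list up to 4 genes past the threshold in each direction by size and the first 2 not past it, and the 5 genes nearest to PLK1. The results of 1 list, the AKT axis, are not reported here. Other names complete a count and were chosen after their values were seen. Identity between the paralogous proteins was not analysed here. Python 3.11.15 with pandas 2.3.3, numpy 2.4.6, scipy 1.17.1 and matplotlib 3.10.9 was used for other steps. Only the limma fit of log2(FPKM + 1) and the limma voom fit were tested on simulated data.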

Additional observations from a re-analysis of the deposited data

How the results depend on the processing

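With all 4 libraries, PLK1 (log2 difference 0.74 to 0.78) and AURKA (0.53 to 0.55) were past the threshold under all 9 alternatives. Without the filter on low values 2 members, 48 genes higher and 81 lower were called. eBayes without a trend called 5 members, 312 genes higher and 381 lower, and limma voom 7 members, 1602 higher and 1665 lower. With 1 library left out, 0 to 1 members, 0 to 82 genes higher and 0 to 131 lower were called, and SKA3 ran from -1.14 to -1.04 (adjusted p 0.0369 to 0.0689). Without NC 1 limma called 0 genes, with 1469 lower and 1644 higher at an unadjusted p under 0.05. In these fits the lone library of a group is assumed to vary like the other group. The median of the members stayed between 0.42 and 0.51 in all 13 alternatives. With 1 library left out, signs turned, with no call, for CDK1 (-0.149 to 0.0644), PLK3 (-0.0032 to 0.117) and LIN9 (-0.241 to 0.0280), each of them without NC 1 and CDK1 also without SKA3-KD 2. The causes were not tested.

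The shared replicate numbers mark no known batch, and same-numbered libraries deviated together only weakly (r = 0.0973 over 12645 genes). With the replicate number as a block, 6 members, 1002 genes higher and 965 lower were called, SKA3 stayed at -1.09, the call of NFYC was lost (adjusted p = 0.058) and MCM3 was called lower (adjusted p = 0.0442). The partners called higher went from 7 to 8 and the G1/S genes called lower from 1 to 2.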
